A study of Mus musculus with 82 samples.

Results

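The 9 Notch pathway genes described here are the receptors Notch1, Notch2 and Notch3, the ligand Jag1, the target genes Hes1, Hey1, Hey2 and Heyl, and the feedback regulator Nrarp. They were chosen by gene symbol from the 55401 genes in the count tables. No cut on their values was made, but earlier results of these data were known. Primary aortic vascular smooth muscle cells (aVSMC) of C57BL/6 mice, kept in medium without serum or supplements for 24 h, were then left unstimulated (control) or stimulated for 24 or 48 h, and their poly(A) RNA was sequenced. EGF at 10 µg/L activates the EGF receptor, angiotensin II (AngII) at 10 nM the AT1 receptor, and U46619, a stable thromboxane analog, at 1 µM the thromboxane receptor TP. After 24 h there were 7 groups with 6 cultures each, 1 per mouse: the control, each agent alone (EGF, U46619 or AngII), EGF+U46619, EGF+AngII, and all 3 agents together (EGF+AngII+U46619). The 48 h cultures came in 2 batches of 5 culture sets each, both with a control and an EGF culture (10 each in all), the EGF/U46619 batch (sets named B1) with U46619 and EGF+U46619 (5 each) and the EGF/AngII batch (sets named B2) with AngII and EGF+AngII (5 each). All cells had been grown with EGF and serum before the medium was withdrawn, and had gone through passages in culture. By the labels, the 10 sets at 48 h carry only 5 mouse numbers, although each replicate is described as cells of a different mouse.

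Notch receptors are transmembrane proteins that a ligand on the neighbouring cell opens for cleavage. The released intracellular domain joins RBPJ and the Mastermind co-activators on DNA and switches on genes of the HES and HEY families, which encode transcriptional repressors, and Nrarp, which limits the signal. In arteries, Notch3 is the receptor characteristic of smooth muscle, Jag1 is presented by endothelial and smooth muscle cells, and Notch1, Notch4, Dll4, Hey1 and Hey2 are prominent in arterial endothelium. Notch signalling is known for its part in keeping arterial smooth muscle cells differentiated.

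The sequences upstream of 3 members are shown, and these genes were below control with U46619 at 1 or both times (values below). This does not set them apart. The fitted change with U46619 was below 0 for 9 of 9 members after 24 h and 8 of 9 after 48 h. The controls of both 48 h batches enter the latter, and within the EGF/U46619 batch alone Notch1 was above 0 (0.11, SE 0.40). The sequences are RefSeq promoter sequences on GRCm38.p6, read 5′ to 3′ on the strand of the gene and ending before the annotated start. Capitals mark matches, on either strand, to TGGGAA (the core bound by RBPJ), CACGTG (an E-box) or CACNAG (an N-box bound by HES proteins).
Notch3, chr17:32166891-32167140, minus strand: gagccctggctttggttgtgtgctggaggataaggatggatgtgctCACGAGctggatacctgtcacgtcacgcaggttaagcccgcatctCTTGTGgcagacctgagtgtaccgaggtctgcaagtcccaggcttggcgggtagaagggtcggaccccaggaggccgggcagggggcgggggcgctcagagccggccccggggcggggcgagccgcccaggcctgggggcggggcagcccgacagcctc
Jag1, chr2:137116645-137116770, minus strand: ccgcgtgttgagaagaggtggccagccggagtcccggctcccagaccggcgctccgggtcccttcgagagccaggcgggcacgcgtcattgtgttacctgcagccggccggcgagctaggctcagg
Hey2, chr10:30842802-30843033, minus strand: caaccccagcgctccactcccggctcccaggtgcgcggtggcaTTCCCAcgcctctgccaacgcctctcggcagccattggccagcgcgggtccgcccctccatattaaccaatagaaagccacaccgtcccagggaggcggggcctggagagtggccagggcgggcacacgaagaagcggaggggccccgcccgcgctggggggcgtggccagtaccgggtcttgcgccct

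RefSeq entries were matched for 6 members. In the 250 bases before the RefSeq start, Hey2 held 1 TGGGAA match on the opposite strand, Notch3 held 2 CACNAG matches and Jag1 held none of the 3 motifs. Nrarp held 1 CACGTG and 2 CACNAG matches, and Notch1 and Notch2 held 1 CACNAG match each. The Notch1 window (chr2:26503823-26504072) lies inside the gene as GENCODE annotates it, so its match is not upstream of that start. The windows of Jag1, Hey2 and Notch2 overlap the GENCODE gene in part, and the sequences above stop before it. Of all 32851 promoters in that table, 21.6% held TGGGAA, 6.02% CACGTG and 36.7% CACNAG within the same length. The GC content was 68.8% for the Notch3 window, 57.2% for Jag1 and 71.6% for Hey2, beside a median of 52.4% over all promoters.

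Library totals ranged from 16483529 to 20818809 assigned reads at 24 h and from 19936925 to 33916114 at 48 h. Levels are given in FPM, counts per 1000000 reads of the TMM-scaled library, and all p-values measure the spread between these cultures. A gene was called where its FDR (Benjamini-Hochberg adjusted p) was under 0.05 in both edgeR and DESeq2 and either group compared averaged 5 FPM or more, over 14528 genes that passed the count filter at both times. All 9 members passed that filter. They are protein-coding genes, and none lies in the stretches listed at 0 in every library (chromosomes 9, X, Y and MT and the end of chromosome 8, which cover among others Adam10, Maml2 and Cdh5 and were not analysed here).

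Some libraries stood apart. The 48 h control culture of set B2-4 did not vary with the other cultures of its set (median correlation of the deviations from the group means -0.43) and was closest to set B2-2. It held 28.9 FPM of Hey2 and 16.9 FPM of Hey1. At 24 h the EGF+AngII+U46619 culture of mouse 3 had the lowest median correlation with the other libraries (0.73), and its Notch3, Jag1 and Notch1 stood at only 2.94, 4.37 and 3.77 FPM. Endothelial markers differed between cultures by orders of magnitude: the sum of 10 measured markers was 4.5 to 68.3 FPM in all cultures of mice 1, 2 and 3, but 404 to 2794 FPM in those of mice 4, 5 and 6. The sum of 11 measured smooth muscle markers was at least 344.7 FPM in every culture, and that of 7 fibroblast markers at least 205 FPM. The lowest smooth muscle sum was in set B2-6. There, 4 of the 11 were under 1 FPM in every library, and the fibroblast sum was 1044 to 1167 FPM.

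Per kilobase of exon, Hes1 was the most abundant member in the controls. Its median was 23.2 FPM/kb at 24 h and 30.4 FPM/kb at 48 h, and it ranked first in 4 of 6 controls at 24 h and in 10 of 10 at 48 h. At 24 h it was followed by Notch3 (median 18.8 FPM/kb), Jag1 (9.95), Notch2 (5.67), Notch1 (1.64), Hey1 (1.29), Nrarp (0.98), Hey2 (0.49) and Heyl (0.42). At 48 h the order was Jag1 (13.3 FPM/kb), Notch3 (7.83), Notch2 (3.58), Hey1 (2.02), Hey2 (1.86), Notch1 (1.80), Nrarp (0.63) and Heyl (0.40). The ranges of all neighbours in both orders overlapped. Within cultures, Hes1 was above its neighbour Jag1 in 10 of 10 controls and Notch3 above Notch2 in 9 of 10 at 48 h, and Hey1 above Nrarp in 6 of 6 and Notch2 above Notch1 in 5 of 6 at 24 h. The order was not tested. The times were sequenced apart, and a difference between them cannot be told apart from that of the batches.

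Most of the variation in the members at 24 h lay between mice. The share of the variance of log2(FPM + 0.5) that lay between mice was 98.1% for Nrarp, 94.9% for Hey1 and 87.2% for Hey2, and from 65.0% (Notch2) to 74.6% (Heyl) for the others. The share between treatments was highest for Notch3 (21.7%) and Jag1 (17.9%) and lowest for Nrarp (0.67%).

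**Figure D1:**
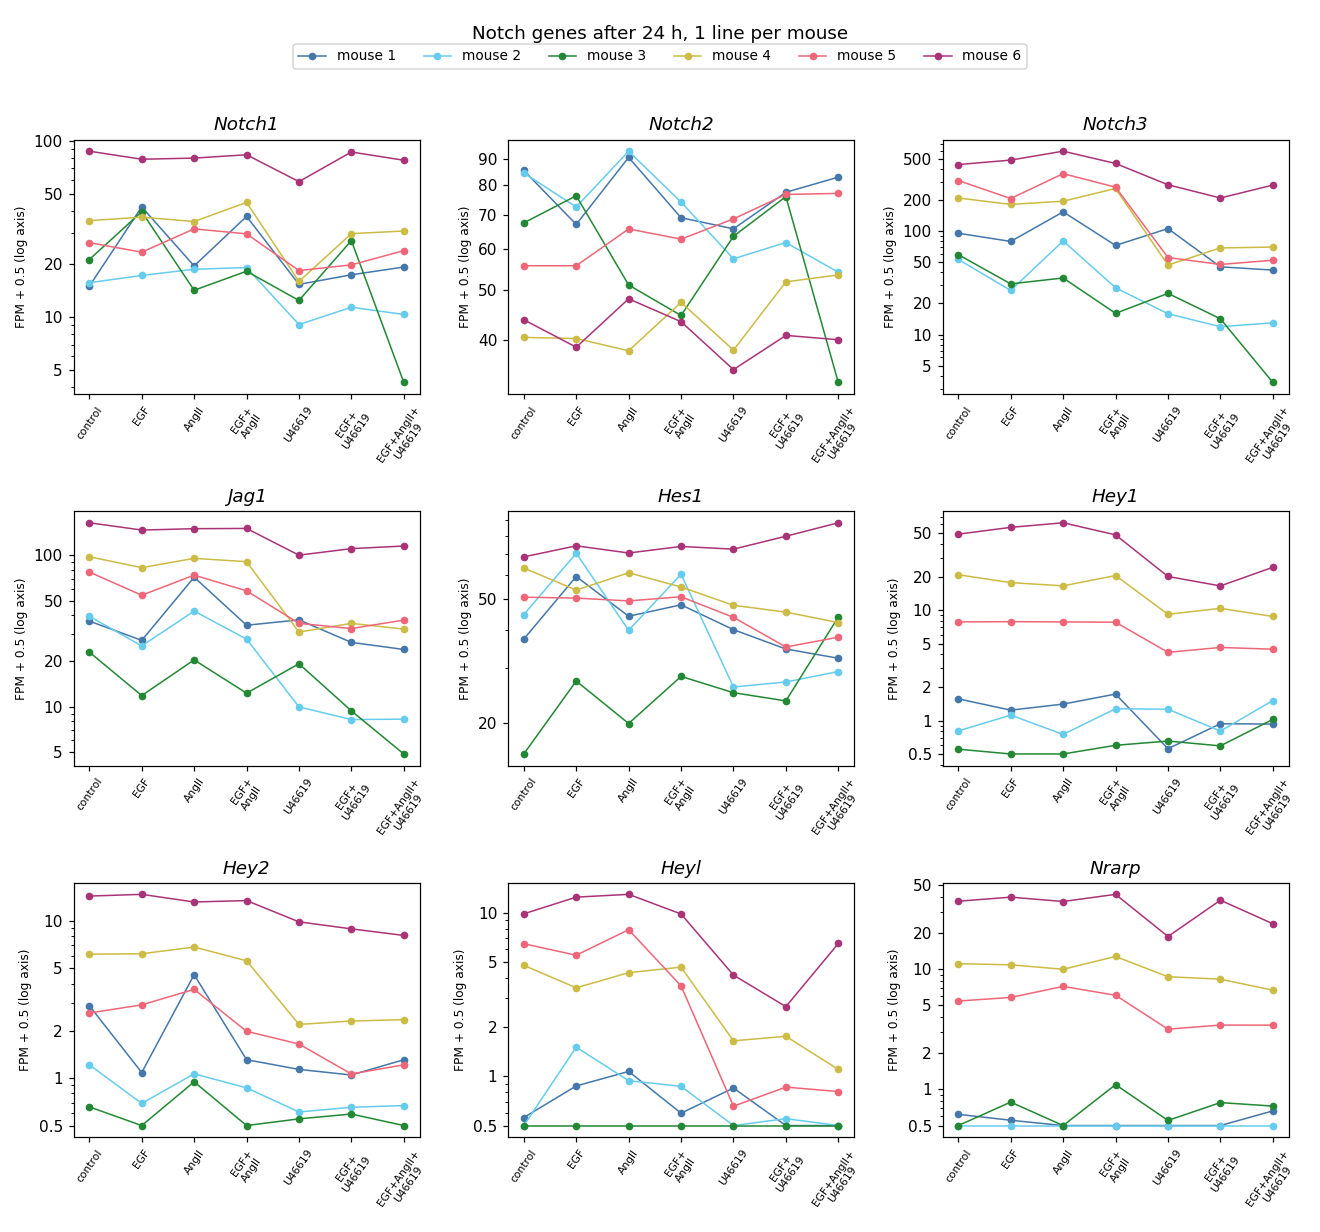
Level of each member after 24 h (FPM + 0.5, log axis) in the 7 groups, with 1 line per mouse. Notch3 and Jag1 lie lower in the 3 groups with U46619 in most mice, and Hey1 and Nrarp separate mice 4, 5 and 6 from mice 1, 2 and 3 in every group, as Heyl does in the groups other than U46619.

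Hey1 and Nrarp had separate ranges in mice 4, 5 and 6 and in mice 1, 2 and 3 over all 24 h cultures (Hey1 at least 3.66 against at most 1.24 FPM, Nrarp at least 2.67 against at most 0.59 FPM). In the control cultures of mice 4, 5 and 6, Hey1 was at 20.5, 7.35 and 48.4 FPM, and in those of mice 1, 2 and 3 at 1.08, 0.31 and 0.053 FPM. Nrarp was at 10.6, 4.93 and 36.2 FPM in the controls of mice 4, 5 and 6, at 0.12 FPM in that of mouse 1 and at 0 in those of mice 2 and 3. Heyl was at 4.28, 5.98 and 9.38 FPM in the former, at 0.060 FPM in mouse 1 and at 0 in mice 2 and 3. Over all cultures the Heyl ranges overlapped: with U46619 it was at 0.157 FPM in mouse 5 and 0.35 FPM in mouse 1, and with EGF mouse 2 reached 1.01 FPM. The order of mice 6, 4 and 5 in Hey1 and Nrarp was also that of the endothelial marker sum (2156 to 2794, 719 to 994 and 404 to 578 FPM). Among mice 1, 2 and 3 this did not hold: mouse 3 had the highest sum (41.8 to 68.3 FPM) but the lowest Hey1 in the controls. At 48 h, the Hey1 of the controls was 22.9 FPM in set B1-1 (sum 976 to 1225 FPM) and 11.6 FPM in set B2-1 (sum 2384 to 2686 FPM).

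Dll4, a ligand of arterial endothelium, showed the same split, at no more than 0.28 FPM in any culture of mice 1, 2 and 3 and from 24.5 to 129 FPM in those of mice 4, 5 and 6. Notch4, a receptor of endothelial cells, was at 0.53 to 16.6 FPM in the former and 34.8 to 133 FPM in the latter. In bulk RNA, fewer cells of a type and less RNA per cell cannot be told apart. At 48 h, sets B1-5 and B2-6 had endothelial marker sums of 10.2 to 20.4 and 21.0 to 24.4 FPM, and their controls held 0.15 and 0.21 FPM of Hey1, 0 and 0.38 FPM of Heyl and 0.038 and 0.42 FPM of Nrarp. In every other set the sum was at least 119 FPM. The part of endothelial cells in these values was not tested.

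**Figure D2:**
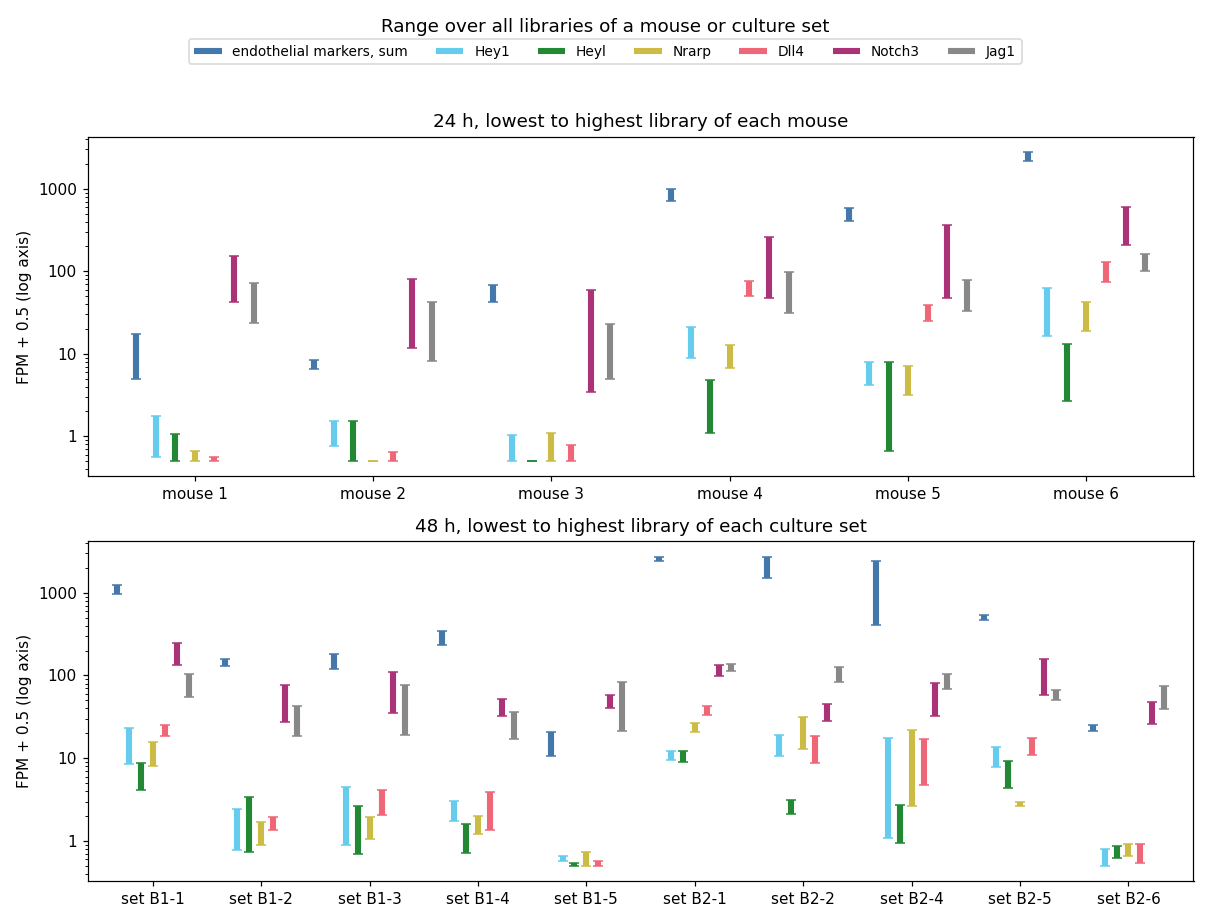
Lowest to highest level (FPM + 0.5, log axis) over all cultures of each mouse at 24 h and of each culture set at 48 h, for the sum of the endothelial markers, Hey1, Heyl, Nrarp, Dll4, Notch3 and Jag1. Mice 1, 2 and 3 and sets B1-5 and B2-6 are low in the marker sum, Hey1, Nrarp and Dll4, with Heyl at or below 1.01 FPM, while Notch3 and Jag1 are present in all of them. At 24 h the Notch3 and Jag1 ranges overlap between these mice and mice 4, 5 and 6, although their controls are lower in mice 1, 2 and 3.

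The effect of each receptor alone was examined first. With EGF alone, 0 of the 9 members were called after 24 h (0.0275% of all genes, 4 genes) and 0 after 48 h (0% of all genes). With AngII alone, 0 members were called after 24 h (0%) and 48 h (0%). Of all genes fitted (14653 at 24 h, 15796 at 48 h), 2546 and 140 passed an unadjusted p of 0.05 in both tools with EGF. With AngII these were 65 and 248. By edgeR, 1 member passed an unadjusted p of 0.05 with EGF after 24 h and 0 members did so with EGF after 48 h or with AngII at either time, and neither edgeR nor DESeq2 alone called any. That member was Jag1, whose median was 58.0 FPM in the controls and 40.4 FPM with EGF after 24 h. It was lower in 6 of 6 mice (edgeR log2 fold change -0.50, SE 0.24), but its FDR was 0.27 by edgeR and 0.21 by DESeq2.

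U46619 alone lowered Notch1, Notch3 and Jag1 after 24 h. These 3 members called lower compare with 27.8% of all genes called in either direction and 14.2% called lower. The fitted log2 fold change was below 0 for 9 of 9 members, with a median of -0.90 beside -0.06 over all genes tested. Without the minimum of 5 FPM, 4 members were called lower, Hey2 being the fourth, beside 18.5% of all genes. Without mouse 3, U46619 called 6 members, a count given without the share of all genes in that fit.

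Notch3 showed the largest change among the called members. Its level was 52.9, 152.2 and 442 FPM (lowest, median and highest of 6 mice) in the controls, 15.4, 50.9 and 281 FPM with U46619, and 11.4, 46.0 and 209 FPM with EGF+U46619. The ranges overlapped, with mouse 6 high and mice 2 and 3 low under every stimulus. Within mice, Notch3 fell with U46619 in 5 of 6, most in mouse 5 (309 to 55.2 FPM), and stood at 95.2 and 106 FPM in mouse 1. The fitted level was 2.41-fold lower with U46619 (log2 fold change -1.27, SE 0.32, FDR 0.0030 by edgeR and 3.9e-04 by DESeq2). With EGF+U46619 it was 3.58-fold lower (-1.84, SE 0.33, edgeR FDR 5.33e-05) and lower in 6 of 6 mice.

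Jag1, the ligand, moved with Notch3. It was at 22.4, 58.0 and 163.2 FPM (lowest, median, highest) in the controls, 9.47, 32.8 and 99.5 FPM with U46619, and 7.72, 29.2 and 110 FPM with EGF+U46619. It was lower with U46619 in 5 of 6 mice, again with mouse 1 level (36.2 and 36.9 FPM), and lower with EGF+U46619 in 6 of 6, although the groups overlapped. The fit gave a 1.87-fold lower level with U46619 (log2 fold change -0.90, SE 0.24, edgeR FDR 0.0049) and a 2.35-fold lower level with EGF+U46619 (-1.23, SE 0.24, edgeR FDR 1.83e-04). Over the 42 libraries at 24 h, with each gene centred per mouse, the correlation of Notch3 with Jag1 was 0.90, the highest among the pairs of the 7 members compared. These libraries share mice and stimuli, and the value is a description.

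Notch1, at 14.5, 23.4 and 86.9 FPM (lowest, median and highest) in the controls, was at 8.59, 15.2 and 58.3 FPM with U46619 alone. It was lower in 5 of 6 mice, by 1.58-fold in the fit (log2 fold change -0.66, SE 0.25, FDR 0.040 by edgeR and 0.024 by DESeq2). With EGF+U46619 it stood at 10.9, 23.0 and 86.0 FPM and differed from the controls by -0.08 (SE 0.25). This call rested on single mice: the fitted value ranged from -0.76 to -0.55 over the fits without 1 mouse, and the edgeR FDR was above 0.05 without mouse 2, 4, 5 or 6. Notch2, at a median of 61.1 FPM in the controls and 60.0 FPM with U46619, was called in none of the comparisons at either time, and its fitted log2 fold change with U46619 was -0.19 (SE 0.15) after 24 h.

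The combination EGF+U46619 lowered Notch3, Jag1 and Hey1 after 24 h. For all genes the share called was 33.4% in either direction and 16.3% lower. The members' median log2 fold change was -1.01 beside -0.05 over all genes. Without the minimum of 5 FPM, 5 members were called lower (Hey2 and Heyl in addition), beside 21.1% of all genes. EGF+AngII+U46619 lowered Notch3 (-1.95, SE 0.33, edgeR FDR 2.35e-05) and Jag1 (-1.35, SE 0.25, edgeR FDR 5.61e-05), beside 34.6% of all genes in either direction and 16.3% lower. Without the FPM minimum, 4 members were called lower with it, beside 21.9% of all genes. Leaving out the EGF+AngII+U46619 culture of mouse 3 changed the values to -1.72 for Notch3 and -1.22 for Jag1, both still called, and without all cultures of mouse 3 the count rose from 2 to 4. The latter count is given without the share of all genes in that fit.

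**Figure D3:**
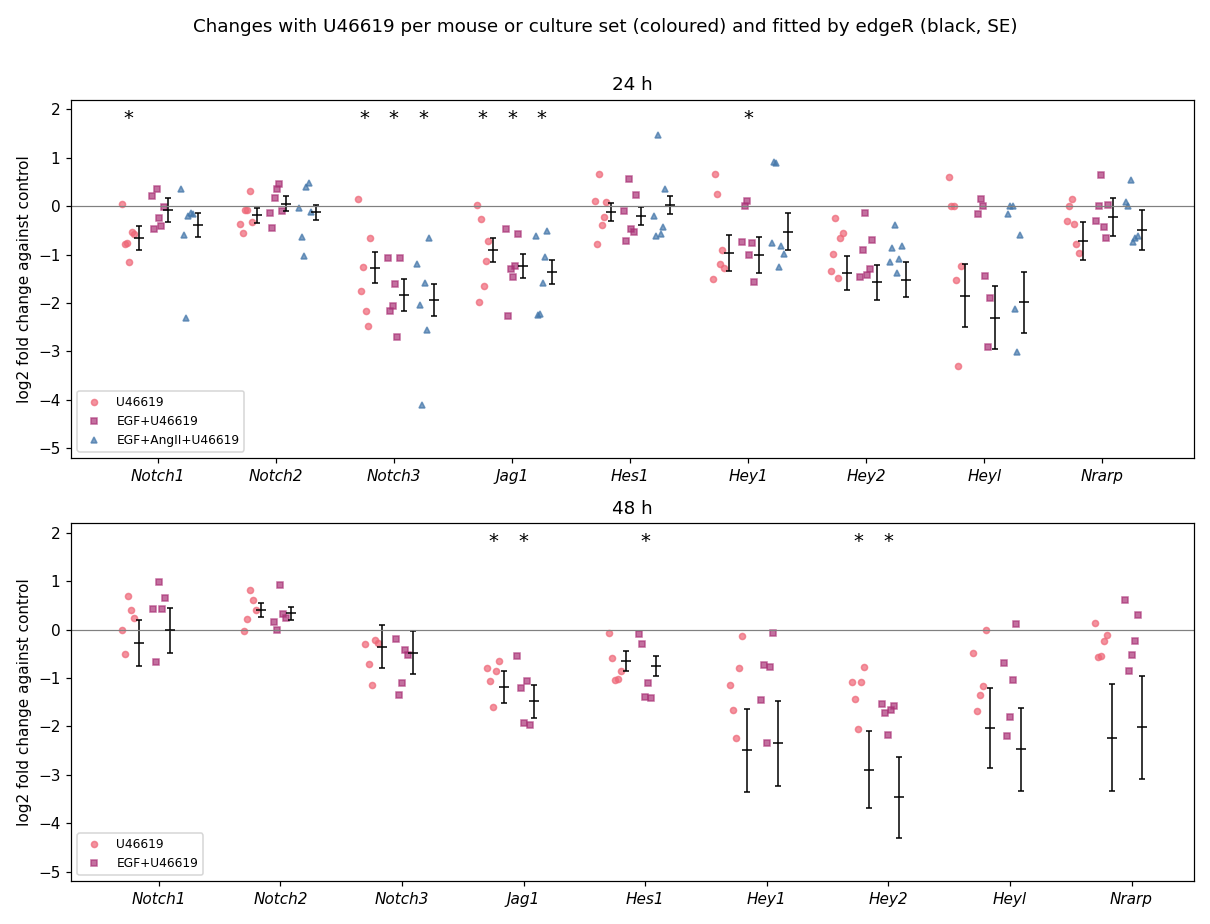
Log2 fold change against control with U46619 and EGF+U46619 after 24 and 48 h and with EGF+AngII+U46619 after 24 h. Coloured points are single mice or culture sets (log2 of FPM + 0.5), black points the edgeR fit with its SE, and asterisks called members. Notch3 and Jag1 lie below 0 in 6 of 6 mice with EGF+U46619 after 24 h, and at 48 h the fitted values of Hey2, Hey1, Heyl and Nrarp with U46619 lie below those of every single set.

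Among the targets, Hes1 was called in no comparison after 24 h. Its median was 47.2 FPM in the controls, 41.4 FPM with U46619 and 34.4 FPM with EGF+U46619, with fitted log2 fold changes of -0.11 (SE 0.19) and -0.20 (SE 0.19). It was lower in 3 of 6 mice with U46619 and in 4 of 6 with the combination. Against EGF alone, EGF+U46619 gave -0.52 (SE 0.19), with an FDR of 0.051 by edgeR and 0.038 by DESeq2.

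Hey1 was measurable mainly in mice 4, 5 and 6, where it went from 20.5, 7.35 and 48.4 FPM in the controls to 8.70, 3.66 and 19.7 FPM with U46619 and 9.91, 4.11 and 16.1 FPM with EGF+U46619. The fitted change was -0.96 (SE 0.38) with U46619, past the edgeR threshold (FDR 0.046) but not that of DESeq2 (0.072). With EGF+U46619 it was -1.01 (SE 0.37, FDR 0.030 by edgeR and 0.042 by DESeq2). That call was lost with DESeq2 fitted on all genes with a count, and by edgeR without mouse 1, 4, 5 or 6 (values from -1.10 to -0.80 in the fits without 1 mouse).

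Hey2, whose protein represses transcription in arterial cells, was lower in 6 of 6 mice with each of the 3 stimuli that held U46619, and also with EGF+AngII. It was at 0.158, 2.25 and 13.9 FPM (lowest, median and highest) in the controls, 0.052, 0.90 and 9.39 FPM with U46619 and 0.092, 0.56 and 8.42 FPM with EGF+U46619. Its fitted log2 fold changes were -1.38 (SE 0.36), -1.57 (SE 0.36) and, with EGF+AngII+U46619, -1.52 (SE 0.36), with edgeR FDRs of 0.0033, 8.42e-04 and 0.0010. No group mean reached 5 FPM, so it was not called. Heyl likewise stayed under 5 FPM on average. In mice 4, 5 and 6 it went from 4.28, 5.98 and 9.38 FPM in the controls to 1.15, 0.157 and 3.67 FPM with U46619 and 1.26, 0.36 and 2.17 FPM with EGF+U46619. Its fitted value was -1.85 (SE 0.66, edgeR FDR 0.030, DESeq2 FDR 0.062) with U46619 and -2.30 (SE 0.65, edgeR FDR 0.0061) with the combination. Nrarp had a median of 2.52 FPM in the controls and 1.36 FPM with U46619. Its fitted changes were -0.72 (SE 0.39) and -0.22 (SE 0.39), and it was called at neither time.

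With EGF+AngII, the combination without U46619, 0 members were called after 24 h, beside 3.13% of all genes, and 0 after 48 h (0% of all genes). No member reached an unadjusted p of 0.05 by edgeR in either, and neither tool alone called one. That p was passed in both tools by 3562 of 14653 genes fitted after 24 h and 298 of 15796 after 48 h. The members' log2 fold changes after 24 h lay between -0.65 (Hey2) and 0.40 (Nrarp). Hey2 (SE 0.34, edgeR FDR 0.23) and Jag1 (-0.37, SE 0.24, edgeR FDR 0.34) were lower in 6 of 6 mice.

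Marker genes of other cell types were examined beside these changes after 24 h with U46619, where 27.8% of all genes were called and 14.2% were called lower. The summed smooth muscle markers had a median of 2804 FPM in the controls (range 1334 to 5482) and 12119 FPM with U46619 (4668 to 18505), with 3 of 10 tested genes called higher, the contractile actins Acta2 (2.05, SE 0.39) and Actg2 (2.68, SE 0.42) among them. Acta2 made up most of that sum (1149 to 4949 FPM in the controls), and the median log2 fold change of the 10 genes was 0.25. With EGF+U46619, Acta2 and Actg2 were called higher and Itga8 (-1.07, SE 0.36) and Synpo2 (-1.03, SE 0.33) lower. Of the fibroblast markers, 6 of 7 were called lower (median log2 fold change -1.24), and their sum had medians of 624 and 312 FPM. In the endothelial list 2 of 10 were called lower (median -0.44), and the sum ranged from 8.01 to 2471 FPM in the controls and from 6.11 to 2156 FPM with U46619. Of the macrophage markers, 2 of 3 tested were called lower (sums of 17.7 to 116 and 10.5 to 55.6 FPM), and 4 of 7 were under 1 FPM in every culture of each mouse. The part of these markers in the changes of the members was not tested.

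**Figure D4:**
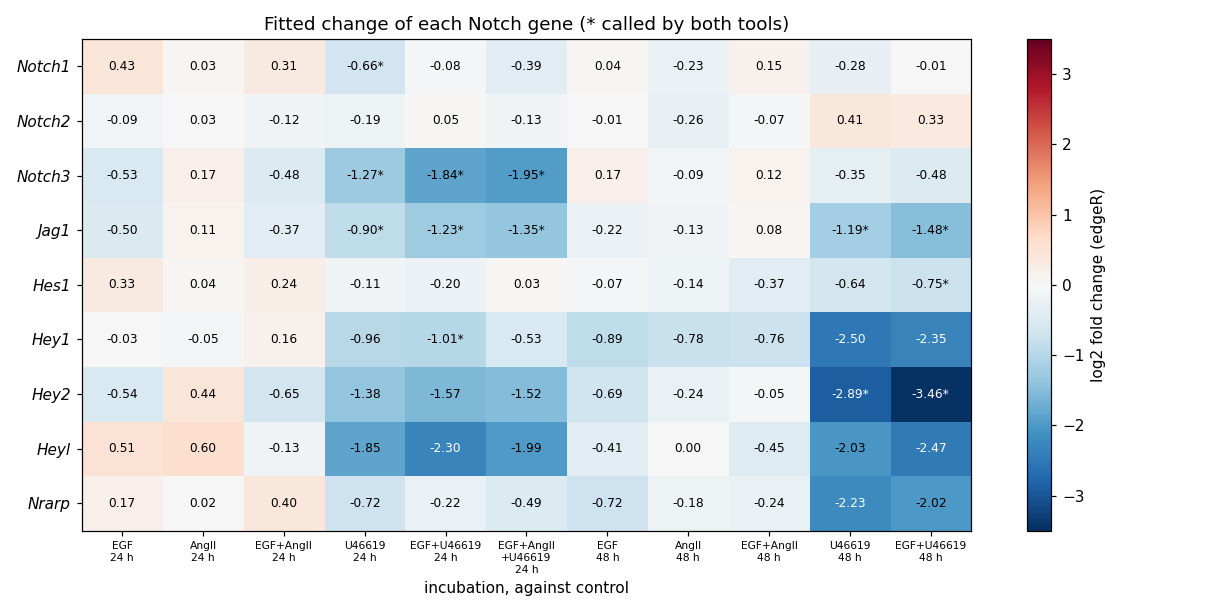
Heat map of the edgeR log2 fold change against control for the 9 members under the 6 stimulations at 24 h and the 5 at 48 h, with asterisks on called members. Calls occur only in columns with U46619, and all of them are below 0.

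At 48 h, U46619 lowered Jag1 and Hey2. These 2 members compare with 4.03% of all genes called in either direction and 1.55% called lower, and the same 2 were called without the FPM minimum (2.2% of all genes lower). With EGF+U46619, Jag1, Hes1 and Hey2 were called lower, beside 6.85% of all genes in either direction, 3.01% lower and 3.96% lower without the FPM minimum. The members' median log2 fold change was -1.19 with U46619 and -1.48 with EGF+U46619, beside -0.03 over all genes in both. The controls of both batches enter these values. In a fit that compares each culture with its own set, the median member was Nrarp with U46619 (-0.96). With EGF+U46619 it was Hes1 (-0.84).

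Jag1 was lower in 5 of 5 sets under both stimuli. In the controls of sets B1-1 to B1-5 it was at 94.9, 42.6, 72.2, 35.6 and 81.8 FPM, with U46619 at 54.1, 20.2, 23.5, 19.4 and 52.1 FPM, and with EGF+U46619 at 64.5, 18.3, 18.5, 16.8 and 20.6 FPM. Over all 10 controls it ranged from 35.6 to 137 FPM (median 77.7), so that only set B1-1 and, for U46619, set B1-5 reached into the control range. The log2 fold change was -1.19 (SE 0.33, FDR 0.032 by edgeR and 0.0068 by DESeq2) with U46619 and -1.48 (SE 0.34, edgeR FDR 0.0056) with the combination. Jag1 was thus called after both 24 and 48 h.

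Hes1 held 71.3, 56.4, 66.6, 61.3 and 52.5 FPM in the controls of sets B1-1 to B1-5, 67.6, 37.6, 31.9, 30.0 and 29.0 FPM with U46619, and 67.3, 45.9, 24.9, 28.3 and 19.3 FPM with EGF+U46619. It was lower in 5 of 5 sets under both, with little difference in set B1-1. The fitted change was -0.64 (SE 0.20, edgeR FDR 0.064, DESeq2 FDR 0.028) with U46619 and -0.75 (SE 0.21, edgeR FDR 0.022) with EGF+U46619. The latter edgeR FDR was above 0.05 without set B1-3, B1-4 or B1-5.

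Hey2 was at 13.2, 3.22, 4.40, 3.59 and 0.99 FPM in the controls of these sets, 5.94, 0.87, 0.67, 1.44 and 0.38 FPM with U46619 and 4.24, 0.63, 0.58, 0.79 and 0 FPM with EGF+U46619. It was lower in 5 of 5 sets, by -0.77 to -2.06 with U46619 and -1.53 to -2.18 with the combination on the log2(FPM + 0.5) scale, which understates changes at low levels. The fits gave -2.89 (SE 0.80, edgeR FDR 0.031) and -3.46 (SE 0.83, edgeR FDR 0.0086), outside the values of all single sets. The controls of both batches enter those fits, and 4 of the 5 EGF/AngII batch controls held 12.7 to 28.9 FPM of Hey2. With each culture set, rather than each mouse number, as the block, which compares each culture with its own set, Hey2 was at -1.79 (SE 0.34) and -2.48 (SE 0.36), and without the control of set B2-4 at -2.24 and -2.86.

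That blocked fit called 4 members with U46619 (Jag1, Hes1, Hey1, Hey2) and 5 with EGF+U46619 (Notch3, Jag1, Hes1, Hey1, Hey2), with Jag1 at -1.04 (SE 0.18, edgeR FDR 1.96e-04) and -1.37 (SE 0.18). The share of all genes that it called is not given here, so these counts stand without that background. Within the EGF/U46619 batch alone, U46619 called 0 members (Jag1 -0.98, edgeR FDR 0.13, and Hey2 -1.72, edgeR FDR 0.085), and EGF+U46619 called Jag1 and Hes1. There, Hey2 with EGF+U46619 passed the FDR threshold of both tools (-2.42, edgeR FDR 0.017, DESeq2 FDR 3.8e-04) and missed only the minimum of 5 FPM. The U46619 count was 0 without set B1-2 or B1-3, 1 without B1-4, B2-2, B2-4 or B2-6, and 4 without B1-1. The counts within the batch and with a set left out also stand without the share of all genes.

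**Figure D5:**
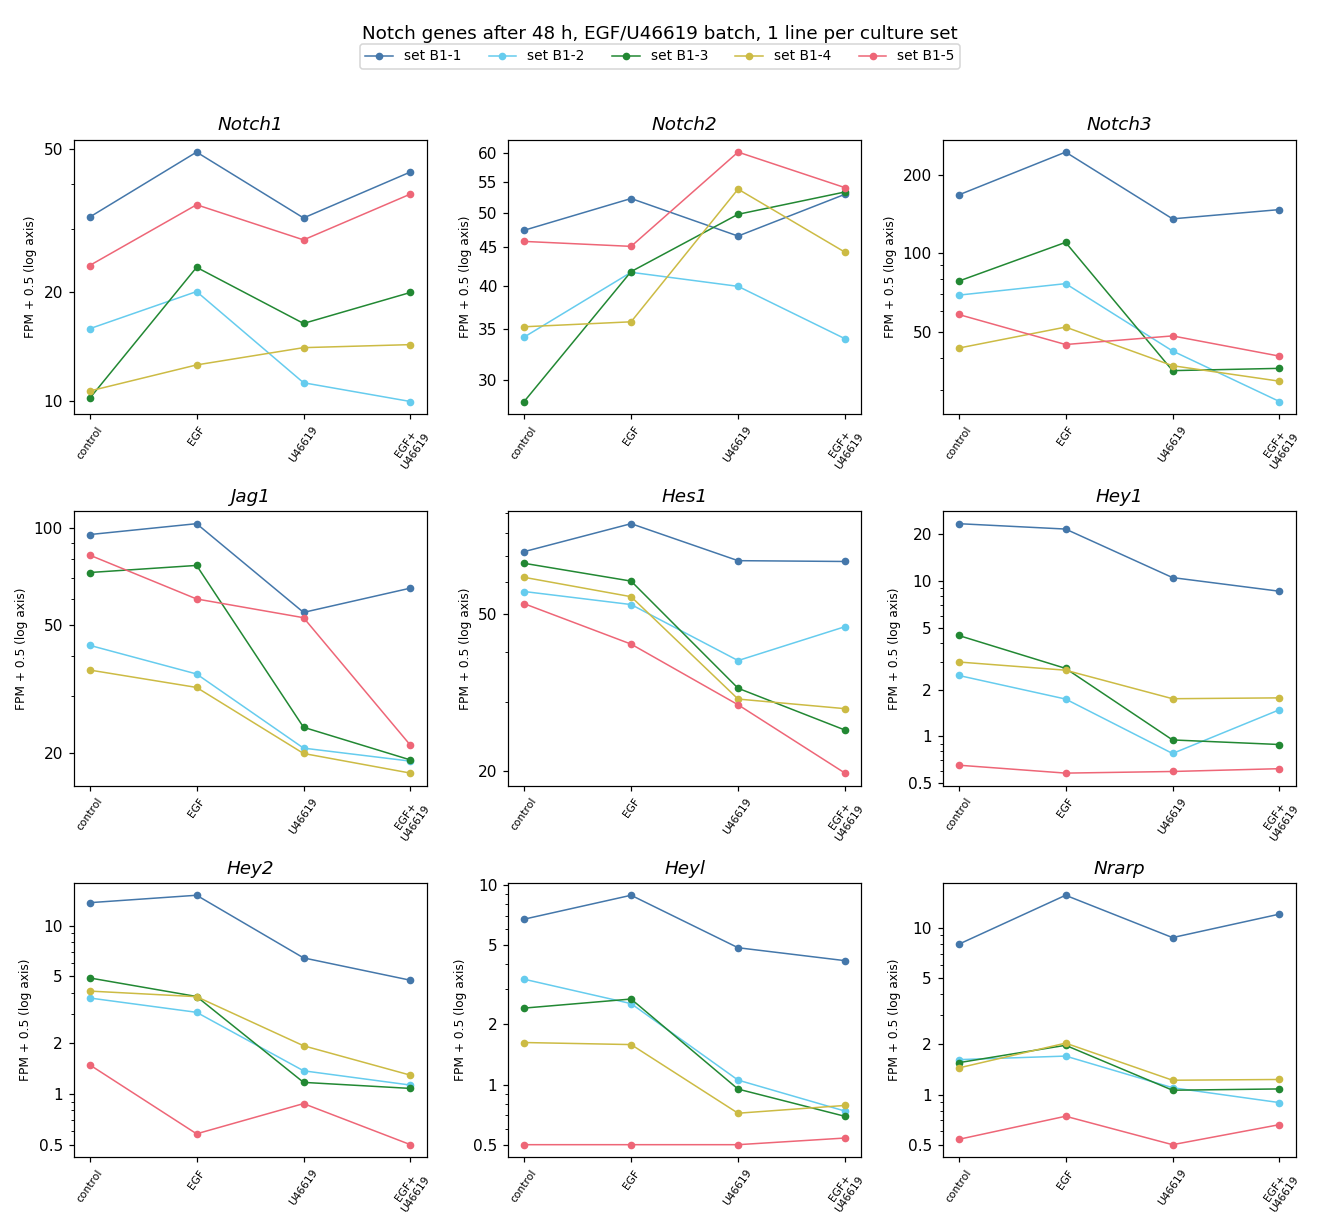
Level of each member (FPM + 0.5, log axis) in the EGF/U46619 batch after 48 h, with 1 line per culture set. Jag1 and Hey2 are lower with U46619 and EGF+U46619 than in the control of the same set in 5 of 5 sets.

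Hey1 and Nrarp were not called at 48 h. Hey1 was at 22.9, 1.97, 3.97, 2.51 and 0.153 FPM in the controls of sets B1-1 to B1-5 and at 10.0, 0.28, 0.45, 1.25 and 0.094 FPM with U46619, lower in 5 of 5 sets. Its fitted value was -2.50 (SE 0.86, edgeR FDR 0.086, DESeq2 FDR 0.016), and -1.83 (SE 0.51, edgeR FDR 0.017) with the culture set as block. Nrarp was lower in 4 of 5 sets and had the widest error (-2.23, SE 1.11), with -0.96 (SE 0.53) in the fit with the set as block. Heyl, at 6.22, 2.86, 1.91, 1.12 and 0 FPM in the controls, stood at 4.34, 0.55, 0.45, 0.22 and 0 FPM with U46619, with a fitted value of -2.03 (SE 0.83, edgeR FDR 0.15).

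The receptors at 48 h stood closer to the controls. Notch3 was at 166.6, 68.7, 77.8, 43.0 and 57.9 FPM in the controls of sets B1-1 to B1-5 and at 135, 41.9, 35.2, 36.7 and 47.9 FPM with U46619. It was lower in 5 of 5 sets, but the fitted change was -0.35 (SE 0.44). With EGF+U46619 it was -0.48 (SE 0.44), and -0.76 (SE 0.22, edgeR FDR 0.017) with the culture set as block. Notch2 was the only member above 0 in both fits, at 0.41 (SE 0.14, edgeR FDR 0.083) with U46619 and 0.33 (SE 0.14, edgeR FDR 0.13) with EGF+U46619. Notch1 was at -0.28 (SE 0.47) and -0.01 (SE 0.46), values that the controls of both batches enter. Against the control of its own set, it was higher in 3 of 5 sets with U46619 and in 4 of 5 with EGF+U46619. Within the EGF/U46619 batch alone it was at 0.11 (SE 0.40) and 0.37 (SE 0.40). With the culture set as block it was at -0.20 (SE 0.30) and 0.02 (SE 0.30).

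At 48 h 0 endothelial, macrophage and smooth muscle markers were called with U46619 or EGF+U46619, and 1 of 7 fibroblast markers was lower with each. With U46619, 2 of 10 endothelial, 3 of 7 macrophage and 0 of 10 smooth muscle markers passed an unadjusted p of 0.05 by edgeR, and DESeq2 alone called 1, 1 and 0. With EGF+U46619 these were 2, 4 and 2, and 0, 3 and 1. Over all 15796 genes fitted, 3375 passed that p in both tools with U46619 and 3821 with EGF+U46619. The median log2 fold change was -1.67 with U46619 and -1.57 with EGF+U46619 for the endothelial list, -2.56 and -2.41 for the macrophage list, and -0.26 and -0.50 for the smooth muscle list. The controls of both batches enter these medians, while U46619 was given in the EGF/U46619 batch only. A change with U46619 and a difference between the batches are therefore not told apart in them. The endothelial sum was 16.9 to 976 FPM with U46619 and 20.4 to 2388 FPM in all 10 controls, whose EGF/AngII batch held the highest sets. The part of these markers in the fitted values was not tested.

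Whether EGF altered the response to U46619 was asked directly. EGF+U46619 against U46619 called 0 members after 24 h (0% of all genes) and 0 after 48 h (0%), and the interaction of EGF and U46619 called 0 at 24 h (0%) and 0 at 48 h (0%). By edgeR, 1 member passed an unadjusted p of 0.05 in the first of these and 0 in the other 3, and neither edgeR nor DESeq2 alone called one. That member was Notch1, higher with EGF+U46619 than with U46619 in 6 of 6 mice (0.58, SE 0.25, edgeR FDR 1). Notch2 was also higher in 6 of 6 mice (0.24, SE 0.15). Over all genes fitted, 364 and 59 passed an unadjusted p of 0.05 in both tools for EGF+U46619 against U46619 after 24 and 48 h. For the interaction these were 440 and 43.

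Against EGF alone, EGF+U46619 lowered Notch3 (-1.31, SE 0.32, edgeR FDR 0.0051) and Jag1 (-0.73, SE 0.24, edgeR FDR 0.035) after 24 h, both in 6 of 6 mice, beside 13.3% of all genes in either direction and 6.26% lower. Left out in turn, mouse 2, 4 or 5 reduced these 2 calls to 1, and mouse 3 raised them to 5. U46619 against EGF called Notch1 alone (-1.09, SE 0.25, edgeR FDR 0.0037), lower in 6 of 6 mice, beside 11.3% and 5.13% of all genes. Without mouse 3 it called 5 members. At 48 h, EGF+U46619 against EGF lowered Jag1 (-1.27, SE 0.33, edgeR FDR 0.021), Hes1 (-0.68, SE 0.21, edgeR FDR 0.049) and Hey2 (-2.78, edgeR FDR 0.036), beside 4.81% of all genes and 2.2% lower. That count was 0 without set B1-3, 1 without B1-2, B1-4, B1-5, B2-1 or B2-6, and 0 within the EGF/U46619 batch. These comparisons share cultures with those against control. The counts with a mouse or set left out, or within the EGF/U46619 batch, stand without the share of all genes called in those fits.

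Other genes of the pathway were taken from a list of 49, of which 41 passed the filter. After 24 h, 12 of 41 were called with U46619 (1 higher, 11 lower), 15 with EGF+U46619 (1 higher, 14 lower) and 12 with EGF+AngII+U46619 (1 higher, 11 lower). Over all genes the shares called were 27.8%, 33.4% and 34.6% in either direction and 14.2%, 16.3% and 16.3% lower, so the share called in either direction was near that of all genes. With EGF, AngII or EGF+AngII, 0 of the 41 were called at either time. At an unadjusted p of 0.05 by edgeR these were 11, 1 and 15 genes after 24 h and 0, 0 and 3 after 48 h, and DESeq2 alone called 6 with EGF+AngII after 24 h. Among the 14653 genes fitted at 24 h, 2546, 65 and 3562 passed that p in both tools. Among the 15796 at 48 h, 140, 248 and 298 did. The median log2 fold change of the 41 was -0.31 with U46619 and -0.28 with EGF+U46619, beside -0.06 and -0.05 over all genes. At 48 h 1 gene was called lower with U46619, Fbxw7 (-0.35, SE 0.096), which marks the Notch intracellular domain for degradation, and 0 with EGF+U46619 (7 at an unadjusted p of 0.05 by edgeR, 2 by DESeq2 alone). Over all 15796 genes fitted at 48 h, 3821 passed that p in both tools with EGF+U46619.

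The gene that rose was Rbpj, the DNA-binding partner of the Notch intracellular domain, at 0.54 (SE 0.16) with U46619 and 0.82 (SE 0.16, edgeR FDR 1.74e-04) with EGF+U46619. The co-activator Maml3 fell by 0.69 (SE 0.28) on the log2 scale with EGF+U46619. Among the ligands, Dll1 fell by 1.25 (SE 0.31). Of the gamma-secretase subunits that cleave the receptor, Psen2 fell by 0.99 (SE 0.20) and Psenen by 0.59 (SE 0.21).

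The remaining named genes were lower as well with EGF+U46619 after 24 h. The glycosylation enzymes Rfng and Pofut1, which modify Notch receptors, fell by 0.36 (SE 0.13) and 0.35 (SE 0.097). The Deltex genes Dtx4 and Dtx3 fell by 1.78 (SE 0.22) and 0.92 (SE 0.19), and Hes6 by 0.90 (SE 0.21). The TLE family genes Tle2 and Tle5 fell by 1.87 (SE 0.22, edgeR FDR 3.17e-07) and 0.66 (SE 0.20). Over all 24 h cultures Dll1 ranged from 0.34 to 17.2 FPM and Jag2 from 0 to 4.30 FPM, and Dll3 did not exceed 0.23 FPM.

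By pattern over the 42 libraries at 24 h, with each of 10607 genes centred per mouse, the genes most like Notch3 were Atp2b4 (r = 0.95) and Afap1l2 (0.94), and those most like Jag1 were Dgka (0.95) and Atp2b4 (0.93). For Notch1 these were Ptgfrn (0.91) and Asap2 (0.90), for Notch2 Usp22 (0.87) and Atxn2 (0.84), and for Hes1 Prr5 (0.87) and Cst6 (0.85). Hey1 was most like Arrdc4 (0.71) and Ivd (0.66), and Nrarp most like Cldn5 (0.73), a tight junction gene of the endothelial list, and Atp2a3 (0.68).

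In GRCm38, Notch1 lies at chr2:26457903-26516663, Notch2 at chr3:98013527-98150361, Notch3 at chr17:32120820-32166852 and Jag1 at chr2:137081456-137116644. Hes1 lies at chr16:30064384-30067796, Hey1 at chr3:8663359-8667256, Hey2 at chr10:30832359-30842801, Heyl at chr4:123233556-123249875 and Nrarp at chr2:25180758-25183339. Counts summed all exons of a gene, so no value refers to a single exon or transcript.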

How the data were processed

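RNA of 82 aVSMC cultures (42 after 24 h, 40 after 48 h) was measured. According to the study's methods, the authors aligned paired-end poly(A) reads with HISAT2 2.1.0 (build mm10) and counted them per gene with featureCounts over exons, multi-mapping reads included. The deposited values are raw counts, and no strand setting is given in the sources used here, so antisense reads cannot be told apart. Genes on chromosomes 9, X, Y and MT (7075) and 657 genes after the last counted one on chromosome 8 are listed at 0 throughout and were not analysed here.

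Counts were filtered with filterByExpr and fitted with edgeR 4.0.16 (TMM, quasi-likelihood test) and DESeq2 1.42.0 in R 4.3.3, with mouse number and treatment as terms and 24 h and 48 h apart. Mouse numbers come from the labels. Cultures with the same number or set deviated together in 126 of 126 pairs of groups at 24 h (correlation of deviations over 0.1) and in 57 of 60 pairs by culture set at 48 h, and no 2 libraries were identical. At 48 h, different sets that carry the same mouse number were not compared in this check. The main fit used the mouse number as block and had no term for batch or set. SEs were derived from the edgeR F statistic. Per-culture differences used log2(FPM + 0.5). The test was checked on simulated data. Alternatives were the tools apart, other scaling, no filters, other blocks, single batches and each mouse or set left out. Wider-list genes were named if called against control, at most 2 per role, by the size of their EGF+U46619 change after 24 h, and other ligands or receptors by range. The members, lists and rules were chosen with earlier results of these data known.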

Additional observations from a re-analysis of the deposited data

Results flagged for a closer look

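Of 216 groups of 4 to 10 values tested, 20 had 1 value far from the rest by Dixon's test, beside about 1 in 20 (5%) by chance. Values per culture are log2 fold changes of FPM + 0.5 against the control of the same mouse or set.

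The culture set B2-4 at 48 h gave 5 of them. Its control was far above its stimulated cultures. Hey1 differed by -3.99 with AngII (the other 4 sets from -0.36 to 0.67) and by -2.28 with EGF, Hey2 by -2.28 with AngII and -1.80 with EGF+AngII, and Nrarp by -3.08 with EGF. This is the library that correlated negatively with its own set. Notch2 with AngII in set B2-2 was at -0.92, and Hey2 with EGF+U46619 in set B1-3 at -2.18.

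Set B1-1, the richest of its batch in endothelial markers, stood above the other 4 sets after 48 h with EGF+U46619 in Jag1 (64.5 FPM), Notch3 (146 FPM), Heyl (3.67 FPM) and Nrarp (11.6 FPM), and with U46619 in Notch3 (135 FPM).

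At 24 h, Notch1 with EGF+AngII+U46619 in mouse 3 was at -2.31, and in mouse 6 under the same stimulus Hes1 was at 87.6 FPM and Heyl at 6.00 FPM. Mouse 1 gave 0.96 for Jag1 with AngII and 1.31 for Notch1 with EGF+AngII. Mouse 2 gave 0.67 for Hey1 with EGF+AngII, and mouse 3 gave 0.65 for Nrarp with EGF and 1.13 with EGF+AngII, all from levels near 0 FPM in these mice.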

How the results depend on the processing

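The fitted values of members past the edgeR threshold (29 over all comparisons) kept their sign under every alternative run, while 52 of the other 133 changed it in at least 1. Counts of members called depended on the block. At 24 h, without the replicate block, 0 members were called with U46619 (3 with it), EGF+U46619 (3), EGF+AngII+U46619 (2), and for EGF+U46619 (2) or U46619 (1) against EGF. At 48 h, without the block, the counts were 0 with U46619 (2 with it), 1 with EGF+U46619 (3) and 0 for EGF+U46619 against EGF (3), and with the culture set as block 4 and 5 for the first pair. The EGF/U46619 batch alone called 0 members with U46619 and 0 for EGF+U46619 against EGF, with fewer cultures. With DESeq2 alone, 4 were called with U46619 after 48 h. Without the FPM minimum, the counts at 24 h were 5 with EGF+U46619, 4 with EGF+AngII+U46619, 4 for EGF+U46619 against EGF and 2 for U46619 against EGF.

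Leaving out 1 mouse gave 2 to 6 calls with U46619 after 24 h, 2 to 4 with EGF+U46619, 2 to 4 with EGF+AngII+U46619, 1 to 5 for EGF+U46619 against EGF and 1 to 5 for U46619 against EGF, each highest without mouse 3. Leaving out 1 set at 48 h gave 0 to 4 with U46619, 2 to 3 with EGF+U46619 and 0 to 3 for EGF+U46619 against EGF. The shares of all genes called in these fits, and in those with other blocks or single batches, are not given here. Chosen after seeing the data, the fit without the EGF+AngII+U46619 library of mouse 3 gave 4 for EGF+U46619 against EGF and 3 for U46619 against EGF, and those without the control of set B2-4 or with DESeq2 on all genes with a count moved no count by over 1.5 times. The cause of these shifts was not tested. Other scaling (DESeq2 size factors) and no count filter also moved none. Heyl, Hey2, Hey1 and Nrarp are limited by depth, with 0 counts in up to 13 of 42 libraries at 24 h.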
